A study of Homo sapiens with 6 samples.

Results

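The AP-1 and immediate early factors described here are 10 transcription factor genes, namely JUN, JUNB, JUND, FOS, FOSB, FOSL1, FOSL2, ATF3, EGR1 and MAFF. They were found by gene symbol in the read counts of SW780, a line grown from a human bladder carcinoma and classed by the study as luminal, and all 10 were among the 16390 genes listed. Total RNA was sequenced in 3 libraries of Control cells and 3 libraries of cells exposed to RC48, and no other genotype or agent is named for either group. RC48 (disitamab vedotin) couples an antibody against ERBB2 to monomethyl auristatin E, a microtubule poison, and the study's methods give its concentration as 25 µg/ml without naming the exposure time of this experiment. All libraries came from 1 cell line, and nothing in the labels says that the replicates were separate cultures, so each p-value measures the spread between libraries, which may be technical.

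AP-1 is a dimer of basic leucine zipper proteins, built from a JUN protein with another JUN, a FOS or an ATF protein, and it binds short DNA elements in the promoters and enhancers of its target genes. Most of its subunits are encoded by immediate early genes, which are transcribed within minutes of a growth factor or a stress signal without new protein synthesis, through kinases of the MAPK families. In epithelial cells AP-1 is known for its part in proliferation, migration, stress and inflammatory gene expression, and microtubule poisons are known to activate the JUN N-terminal kinases.

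The factors did not move as 1 group. JUN, the main AP-1 subunit with strong activating function, rose 1.57-fold in RC48-exposed cells (194.0 ± 6.80 to 304.0 ± 18.4 CPM, mean ± SD, n = 3 in each group). This call was lost when RC48 replicate 3 or a Control library was left out, and after a correction for GC content. MAFF, a small MAF protein, ATF3, a stress-induced partner of JUN, FOSL1 and JUNB were higher in every RC48 library than in any Control library but did not pass the test, and for JUNB the groups overlapped after the correction. FOS, the most abundant of the 10, was lower in every RC48 library without passing, and the groups overlapped in FOSB, FOSL2, JUND and EGR1. After the correction MAFF was called higher and FOS and FOSB lower, against 6.88% of genes, and these calls were lost when any Control library was left out. The groups then no longer overlapped in FOSB and EGR1. CPM is a count scaled for library size with edgeR's TMM factors, and a gene was called where edgeR's quasi-likelihood test gave a Benjamini-Hochberg adjusted p under 0.05 over 13055 genes.

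Of the 10 factors, 1 was called, JUN, which was higher, against 2.21% of 13055 genes in either direction and 1.98% higher. In edgeR, 4 had an unadjusted p under 0.05, against 19.1% of genes. The values of the groups did not overlap in 6 factors (5 higher and 1 lower with RC48), against 31.5% of all genes tested (17.4% higher and 14.1% lower). The median log2 fold change was 0.14 over the 10 factors and 0.016 over all genes tested, both without the GC correction. With the correction JUN, FOSL1, ATF3 and MAFF stayed higher and JUND, FOS and FOSB lower. The log2 fold changes of JUNB, FOSL2 and EGR1 turned negative (-0.0085, -0.19 and -0.16), and the median over all genes was -0.0057. In bulk RNA, a change in the share of cells that express a gene and a change in RNA per cell cannot be told apart.

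**Figure D1:**
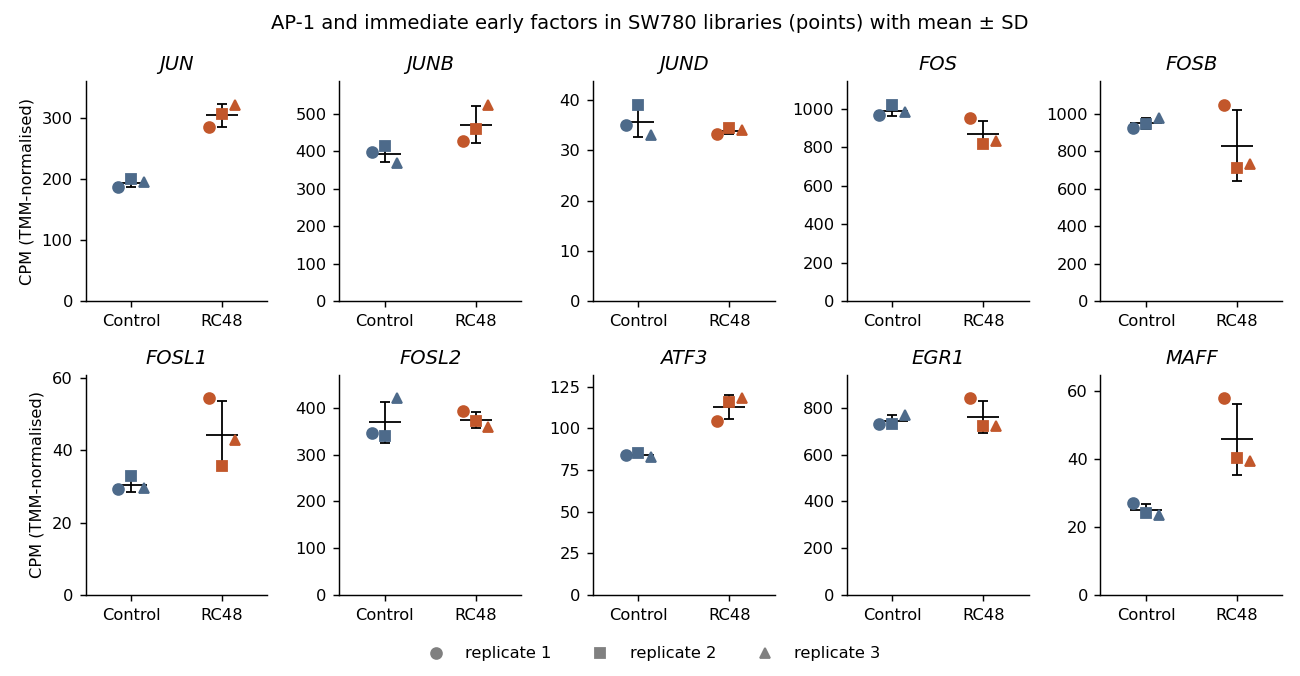
Level of each factor in TMM-normalised CPM (vertical axes, each from 0) in the 3 Control and 3 RC48 libraries (points, shaped by replicate number), with the mean and SD of each group as bars. JUN, JUNB, FOSL1, ATF3 and MAFF lie higher in all RC48 libraries and FOS lower (JUNB overlaps after the GC correction), and RC48 replicate 1 stands apart from replicates 2 and 3 in FOSB, EGR1 and MAFF.

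RefSeq (GRCh38.p14) gave a window of 250 bases before the start of transcription for 9 of the 10 factors, with 11 windows in all. FOSL1 had no entry. The windows were searched on both strands for TGANTCA (the AP-1 element), TGACNTCA (the longer element bound by JUN-ATF and CREB dimers), the CArG box (bound by SRF, the factor that drives many immediate early genes) and TATAAA. None of the 4 motifs contains another. Over 35116 RefSeq windows of the same length, 6.57% held TGANTCA, 6.87% TGACNTCA, 1.16% a CArG box and 10.7% TATAAA. Shown here are JUN, ATF3 and MAFF, which hold TGACNTCA. JUN was called higher with RC48, and ATF3 and MAFF were higher in every RC48 library without passing the test. Also shown are JUND, which holds the element and was not higher, and EGR1, which holds the CArG boxes. Capitals mark the motif.
JUN, 30 bases around the element, chr1:58784096-58784125, minus strand: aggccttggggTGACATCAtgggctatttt
MAFF, 30 bases around the element, chr22:38201929-38201958, plus strand: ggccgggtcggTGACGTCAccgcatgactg
ATF3, window up to the first exon that GENCODE release 29 lists, chr1:212565157-212565333, plus strand: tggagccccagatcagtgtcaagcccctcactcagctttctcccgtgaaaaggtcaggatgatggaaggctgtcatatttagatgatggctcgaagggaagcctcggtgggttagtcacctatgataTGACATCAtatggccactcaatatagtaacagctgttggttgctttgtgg
JUND, whole window, chr19:18281623-18281872, minus strand: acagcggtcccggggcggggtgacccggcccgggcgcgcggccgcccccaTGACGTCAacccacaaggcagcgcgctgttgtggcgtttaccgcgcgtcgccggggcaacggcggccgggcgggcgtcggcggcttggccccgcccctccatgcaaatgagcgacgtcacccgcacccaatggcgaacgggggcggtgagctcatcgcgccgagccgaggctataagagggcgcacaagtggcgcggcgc
EGR1, whole window, chr5:138465229-138465478, plus strand: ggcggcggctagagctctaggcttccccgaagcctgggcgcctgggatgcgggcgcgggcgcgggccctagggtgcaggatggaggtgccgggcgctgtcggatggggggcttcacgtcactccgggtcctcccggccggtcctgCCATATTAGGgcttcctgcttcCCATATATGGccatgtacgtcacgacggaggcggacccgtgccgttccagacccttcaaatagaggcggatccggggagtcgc

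The element lay 67 to 60 bases before the RefSeq start in JUN and 54 to 47 bases before it in MAFF, and in both it falls inside an exon of a longer transcript in GENCODE release 29. In ATF3 it lay 123 to 116 bases and in JUND 200 to 193 bases before the start, outside annotated exons. EGR1 held CArG boxes 105 to 96 and 83 to 74 bases before its start. JUNB, FOS and FOSB held TATAAA 31 to 26, 33 to 28 and 30 to 25 bases before the start. ATF3 held it only in its second window, 230 to 225 bases before the end of that window. This window (chr1:212614768-212615017) lies inside the ATF3 gene, and whether transcription starts there was not tested. The FOSL2 window and the second MAFF window held none of the 4, and TGANTCA was in none of the 11. Of the 4 genes with TGACNTCA, JUN rose, ATF3 and MAFF had higher CPM in all RC48 libraries without passing the test, and JUND overlapped between the groups. JUNB also had higher CPM in all RC48 libraries, without passing, and its window held no TGACNTCA, while FOSL1 had no window. Whether the motif goes with a change was not tested.

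Among the JUN proteins, JUN (NCBI gene 3725, chr1:58780788-58784327, GRCh38, minus strand) is the strongest activator of the family, and FOS proteins bind DNA as dimers with a JUN protein. It had 186.8, 200.2 and 195.1 CPM in Control replicates 1, 2 and 3 and 284.8, 305.7 and 321.5 CPM in RC48 replicates 1, 2 and 3. All RC48 values lay above all Control values, with a gap wider than the range of either group. The log2 fold change was 0.65 (SE 0.11, 95% interval 0.40 to 0.90, edgeR adjusted p = 0.0267). An exact two-sided permutation test gave p = 0.1, the smallest that 3 libraries against 3 allow. The edgeR call was lost without Control replicate 1 (adjusted p = 0.24), Control replicate 2 (0.186), Control replicate 3 (0.159) or RC48 replicate 3 (0.214), at log2 fold changes of 0.58 to 0.67. Without each of these libraries 0.537%, 0.591%, 0.515% and 0.706% of all genes were called, and without RC48 replicate 1 or 2, where JUN was called, 6.82% and 28.3%. The call was also lost with the GC correction, described further on, where the log2 fold change was 0.44 (edgeR adjusted p = 0.111).

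JUNB (chr19:12791496-12793315, plus strand), a JUN family member that can restrain JUN in some cells, had 399.1, 415.0 and 368.8 CPM in Control and 428.3, 460.6 and 524.9 CPM in RC48 libraries. The groups did not overlap, but the highest Control and lowest RC48 library were close. The log2 fold change of 0.26 (SE 0.12) did not pass (edgeR adjusted p = 0.279), and with the correction for GC content it was -0.0085 and the groups overlapped. JUND (chr19:18279760-18281622, minus strand) is the JUN protein that is usually present in resting cells and is not a typical immediate early gene. It had 35.1, 39.11 and 33.03 CPM in Control and 33.23, 34.38 and 34.12 CPM in RC48 libraries. The RC48 values all lay within the Control range, and the log2 fold change was -0.076 (95% interval -0.37 to 0.22, edgeR adjusted p = 0.699).

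In the FOS family, the pattern differed from gene to gene. FOS (NCBI gene 2353, chr14:75278774-75282230, plus strand), the prototype immediate early gene, had 966.7, 1022 and 982.6 CPM in Control and 950.1, 819.1 and 833.0 CPM in RC48 libraries. All RC48 values lay below the Control values, although RC48 replicate 1 was close to Control. The log2 fold change was -0.19 (SE 0.11, 95% interval -0.45 to 0.067, edgeR adjusted p = 0.326).

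FOSB (chr19:45467995-45475179, plus strand), a close relative of FOS, had 924.0, 943.7 and 979.7 CPM in Control and 1049, 710.9 and 731.0 CPM in RC48 libraries. RC48 replicate 1 was above every Control library, and RC48 replicates 2 and 3 were below every Control library. Over all libraries the log2 fold change was -0.19 (SE 0.17, edgeR adjusted p = 0.463). Without RC48 replicate 1 it was -0.40 (edgeR adjusted p = 0.0181), in a fit that called 6.82% of all genes.

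FOSL1 (chr11:65892049-65900573, minus strand), which encodes FRA1, a FOS protein without the FOS activation domain that is often high in invasive carcinoma cells, had 29.26, 32.79 and 29.44 CPM in Control and 54.3, 35.64 and 42.92 CPM in RC48 libraries. All RC48 libraries were higher, by a small margin in replicate 2 and by a wide margin in replicate 1. The log2 fold change was 0.54 (SE 0.17, 95% interval 0.13 to 0.94, edgeR adjusted p = 0.187), and 0.23 after the GC correction. With each library left out in turn it was 0.36 to 0.67, with edgeR adjusted p values of 0.0247 to 0.518. It passed in 1 of these fits, without RC48 replicate 2, where 28.3% of all genes were called. FOSL2 (chr2:28392448-28417312, plus strand), which encodes FRA2, had 346.3, 339.1 and 419.7 CPM in Control and 391.9, 371.8 and 358.9 CPM in RC48 libraries. The RC48 values lay inside the Control range, and the log2 fold change was 0.023 (95% interval -0.27 to 0.31, edgeR adjusted p = 0.913) and -0.19 after the GC correction.

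The other factors are an ATF protein, a small MAF protein and a zinc finger factor. ATF3 (NCBI gene 467, chr1:212565334-212620777, plus strand), a stress-induced basic leucine zipper protein that pairs with JUN proteins and represses many targets as a homodimer, had 83.96, 85.23 and 82.85 CPM in Control and 104.4, 115.9 and 117.9 CPM in RC48 libraries. The Control libraries differed by little, and every RC48 library stood clear of them. The log2 fold change was 0.42 (SE 0.11, 95% interval 0.17 to 0.68), with an unadjusted p of 0.00556 and an adjusted p of 0.124 from edgeR. It was 0.47 without RC48 replicate 1 (edgeR adjusted p = 0.0108) and 0.40 without RC48 replicate 2 (edgeR adjusted p = 0.0444), where 6.82% and 28.3% of all genes were called. With each of the other libraries left out the edgeR adjusted p was 0.394 to 0.49.

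MAFF (NCBI gene 23764, chr22:38200767-38216511, plus strand), a small MAF protein that binds DNA with NRF2 and related factors and lacks an activation domain, had 27.12, 24.16 and 23.61 CPM in Control and 57.76, 40.15 and 39.35 CPM in RC48 libraries. All RC48 libraries were higher, and RC48 replicate 1 was the highest. It had the largest difference of the 10, 1.83-fold in mean CPM with a log2 fold change of 0.87 (SE 0.18, 95% interval 0.45 to 1.29), and missed the threshold (edgeR adjusted p = 0.0602). It passed without RC48 replicate 1 (log2 fold change 0.66, edgeR adjusted p = 0.00277) and without RC48 replicate 2 (0.96, edgeR adjusted p = 0.0181), where 6.82% and 28.3% of all genes were called. It missed without Control replicates 1, 2 and 3 (edgeR adjusted p = 0.229, 0.304 and 0.304) and without RC48 replicate 3 (0.151).

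EGR1 (chr5:138465490-138469315, plus strand), a zinc finger immediate early factor outside AP-1 that responds to SRF and ERK signalling, had 732.1, 731.4 and 771.3 CPM in Control and 840.0, 721.9 and 720.7 CPM in RC48 libraries. RC48 replicate 1 was above and replicates 2 and 3 were below every Control library. The log2 fold change was 0.031 (95% interval -0.23 to 0.29, edgeR adjusted p = 0.868) and -0.16 after the GC correction.

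**Figure D2:**
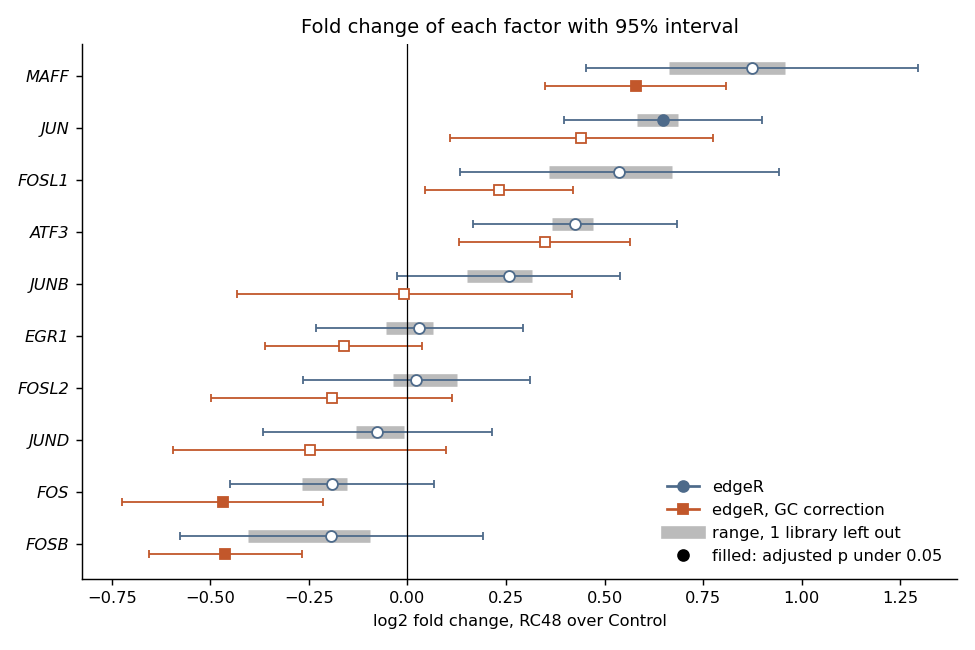
Log2 fold change of RC48 over Control for each factor (horizontal axis) with the 95% interval from edgeR, without (circles) and with (squares) the correction for GC content, and the range when each library is left out (grey bars). Filled symbols passed the threshold: JUN without the correction, and FOS, FOSB and MAFF with it.

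Levels of different genes can be compared in TPM, the deposited values scaled by gene length and library, which were read for the Control libraries and RC48 replicates 1 and 3. In Control cells FOS was the highest at 971.9 ± 52.5 TPM (SD, n = 3) and ranked between 128 and 150 of all genes listed. It was followed by FOSB at 485.3 ± 40.1, EGR1 at 463.6 ± 39.5 and JUNB at 456.2 ± 8.34 TPM, whose ranges overlapped. JUN at 115.7 ± 7.80 TPM overlapped with FOSL2 at 101.4 ± 17.9 TPM, and FOSL2 with ATF3 at 89.7 ± 3.83 TPM.

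The lowest levels were those of FOSL1 at 39.9 ± 2.26 and JUND at 38.8 ± 2.12 TPM, which did not differ beyond their spread, and of MAFF at 21.3 ± 1.29 TPM. In this untreated line the immediate early factors FOS, FOSB, EGR1 and JUNB were each higher than at least 98.0% of the genes listed. In RC48 replicates 1 and 3, FOS had 805.9 and 770.4 TPM and JUN 150.0 and 181.7 TPM.

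The make-up of both families differed between these libraries, and RC48 replicates 1 and 3 are also the libraries with a trend on GC content, given in the next paragraphs, whose part in the TPM values was not tested. JUN made up 18.2%, 18.6% and 20.1% of the summed TPM of JUN, JUNB and JUND in Control libraries and 24.8% and 23.0% in RC48 replicates 1 and 3. JUNB remained the larger part in all 5 libraries, at 70.1% and 72.5% in RC48 replicates 1 and 3 and 73.8% to 75.6% in Control. FOSL1 made up 2.39% to 2.63% of the FOS family in Control and 4.22% and 4.14% in RC48 replicates 1 and 3.

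The ratio of JUN to FOS was 0.117, 0.119 and 0.121 in Control libraries and 0.186 and 0.236 in RC48 replicates 1 and 3. The ratio of the JUN family to the FOS family was 0.358 to 0.396 in Control libraries and 0.421 and 0.621 in RC48 replicates 1 and 3. Both ratios were higher in each of the RC48 libraries than in any Control library, and with 2 libraries on one side they are given without a test.

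**Figure D3:**
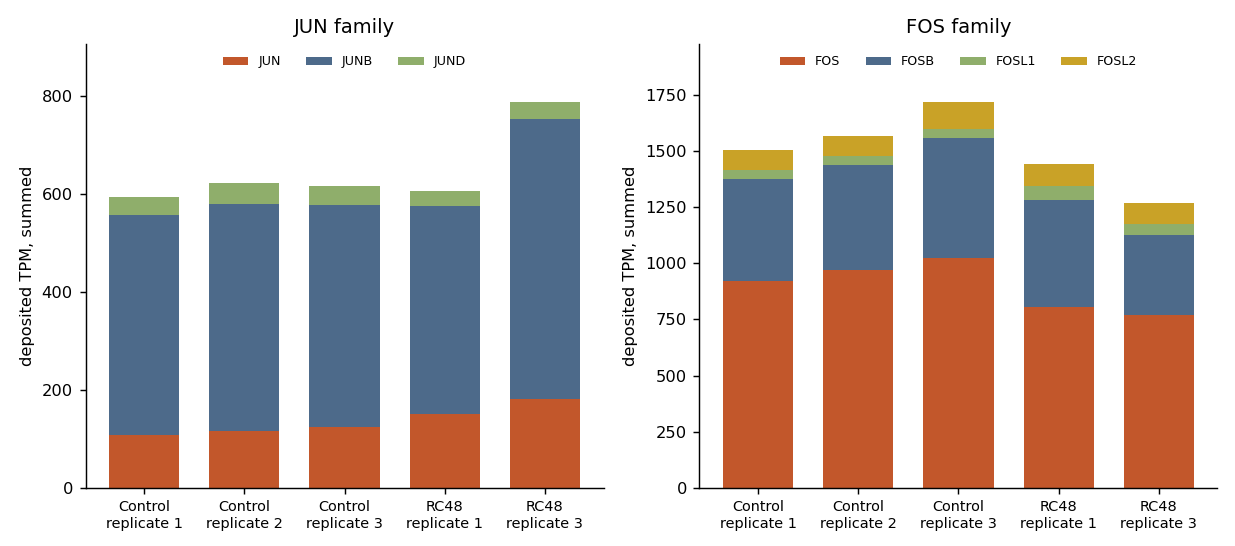
Deposited TPM (vertical axes, stacked from 0) of the JUN family and of the FOS family in 3 Control libraries and RC48 replicates 1 and 3. JUNB and FOS take most of their families in each library, and the JUN segment is larger in both RC48 libraries (150.0 and 181.7 TPM) than in Control (108.0 to 123.6 TPM).

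Library totals were 16453233 to 17988030 estimated counts. Genes of high GC content had more counts in some RC48 libraries than in Control. Across 13018 genes, the rank correlation of GC content with the log2 ratio to the Control mean was 0.741 in RC48 replicate 1, -0.013 in replicate 2 and 0.573 in replicate 3, as a description across genes that are not independent replicates. With genes split into 10 classes of equal size by GC content, the class with the lowest had median log2 ratios of -0.95, 0.010 and -0.37 in RC48 replicates 1, 2 and 3, and the class with the highest had 0.64, 0.010 and 0.23. Pairs of Control libraries differed by a chi-square of 1.5 to 12.08 per degree of freedom and pairs of RC48 libraries by 23.16 to 140.46, where sampling noise alone gives a value near 1.

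Of the 10 factors, 9 lay in the upper 4 of these GC classes, and ATF3, at 50.9% GC, in class 6. JUN, at 56.7% GC, had log2 ratios to the Control mean of 0.55, 0.65 and 0.73 in RC48 replicates 1, 2 and 3, where the median of genes in its class was 0.49, 0.0029 and 0.18. In replicates 2 and 3 JUN was thus above the median of its class, and in replicate 1 it was close to that median. The spread of the genes within a class was not computed. ATF3 had log2 ratios of 0.31, 0.46 and 0.49, where the median of its class was 0.16, 0.0063 and 0.078.

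MAFF, at 59.4% GC, had log2 ratios of 1.20, 0.68 and 0.65 in RC48 replicates 1, 2 and 3, against 0.61, 0.0061 and 0.22 for its class, and was above its class in all 3. FOSL1 had 0.82, 0.22 and 0.49 against the same medians. FOS had -0.060, -0.27 and -0.25 against the same medians, and FOSB had 0.14, -0.42 and -0.38 against 0.49, 0.0029 and 0.18. FOS and FOSB were below the median of their GC class in all RC48 libraries.

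**Figure D4:**
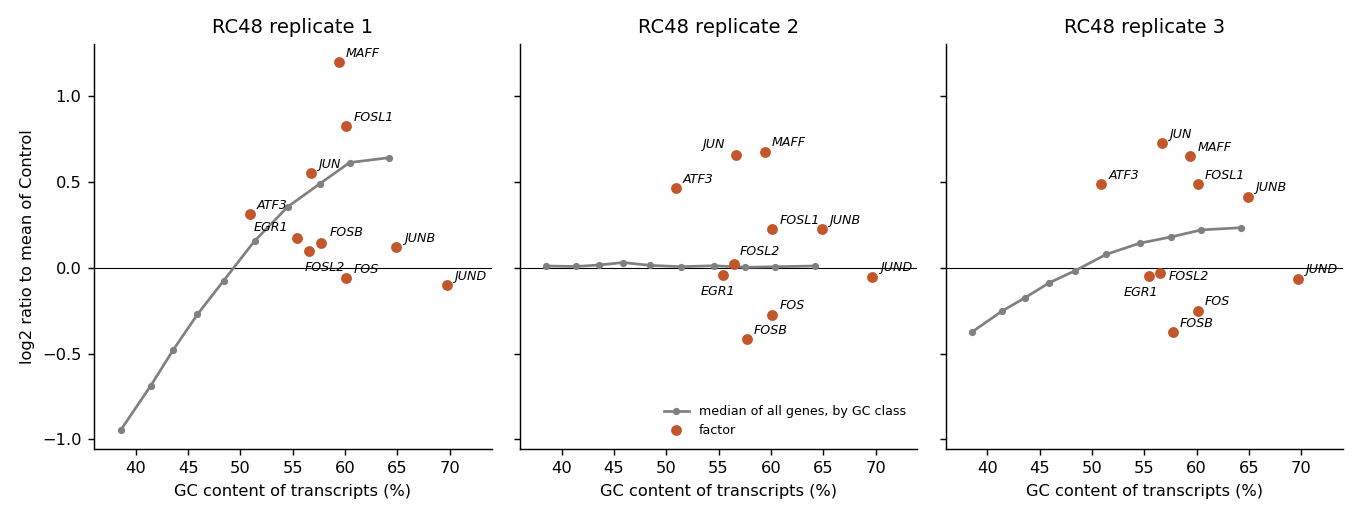
Log2 ratio of CPM in each RC48 library to the Control mean (vertical axis) against the GC content of a gene's transcripts in % (horizontal axis), for the factors (points) and as the median of all genes in 10 classes of GC content (grey line). The line rises in RC48 replicates 1 and 3 and is flat in replicate 2, and MAFF, JUN, FOSL1 and ATF3 lie above it in all 3 panels while FOS and FOSB lie below it.

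With the trend of each library on GC content subtracted in edgeR, 3 of the factors were called, MAFF higher and FOSB and FOS lower, against 6.88% of 13018 genes (4.42% higher and 2.45% lower). MAFF rose by a log2 fold change of 0.58 (SE 0.10, adjusted p = 0.0132), and FOSB and FOS had log2 fold changes of -0.46 (SE 0.085, adjusted p = 0.0169) and -0.47 (SE 0.11, adjusted p = 0.0439) in edgeR. All 3 calls were lost when any Control library was left out of this fit, at edgeR adjusted p values of 0.142 to 0.168 for FOS, 0.0629 to 0.0864 for FOSB and 0.0515 to 0.0875 for MAFF. Without RC48 replicate 3, FOS (0.164) and FOSB (0.0884) were lost as well in edgeR. The GC-corrected values of FOSB were 999.9, 1016 and 1088 CPM in Control and 785.2, 774.2 and 693.3 CPM in RC48 libraries. RC48 replicate 1 was then with replicates 2 and 3, and below all Control libraries.

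The GC-corrected values of JUN were 200.9, 214.2 and 214.9 CPM in Control and 218.7, 330.5 and 306.4 CPM in RC48 libraries. The groups still did not overlap, but RC48 replicate 1 was close to Control. FOSL1 came to 32.09, 35.73 and 33.48 CPM in Control and 38.87, 39.62 and 40.46 CPM in RC48 libraries, a log2 fold change of 0.23 (edgeR adjusted p = 0.128) with no overlap. After the correction, the groups did not overlap in 7 of the 10 factors, against 33.2% of 13018 genes. JUN, FOSL1, ATF3 and MAFF were higher with RC48, and FOS, FOSB and EGR1 lower. For EGR1 the margin was small, with at least 775.3 CPM in Control and at most 773.9 CPM in RC48 libraries. With the replicate number as a block in the same fit, MAFF passed (edgeR adjusted p = 0.0298), and FOS (0.0528) and FOSB (0.057) did not, against 4.40% of genes called.

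Other genes of the pathway were described from 4 lists. Of 30 other immediate early genes, all listed and 29 tested, 3 were called higher and 1 lower, against 2.21% of all genes tested, and the median log2 fold change was 0.23, against 0.016 over all genes. The number called was 1, 1 and 0 without Control replicates 1, 2 and 3 (edgeR, with 8, 8 and 9 at an unadjusted p under 0.05), and 9, 8 and 2 without RC48 replicates 1, 2 and 3. Of all genes, the fits without Control replicates 1, 2 and 3 called 0.537%, 0.591% and 0.515%. Those without RC48 replicates 1, 2 and 3 called 6.82%, 28.3% and 0.706%, and a share of the list near these says nothing of the list. SGK1, a serum- and glucocorticoid-regulated kinase, had 393, 386 and 404 estimated counts in Control and 838, 1233 and 1170 in RC48 libraries, a log2 fold change of 1.44 (SE 0.15, edgeR adjusted p = 0.00379). CCN1, a secreted matrix protein and a target of SRF and YAP, had 4422, 4581 and 4468 counts in Control and 11290, 8897 and 10507 in RC48 libraries, a log2 fold change of 1.18 (SE 0.14, edgeR adjusted p = 0.00523). In both genes every RC48 library was above every Control library.

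GADD45B, a stress sensor that acts upstream of p38 and JNK, rose by a log2 fold change of 0.99 (SE 0.19, edgeR adjusted p = 0.0413). KLF2, a zinc finger factor, had 141, 118 and 110 counts in Control and 41, 67 and 66 in RC48 libraries and fell by 1.10 on the log2 scale (SE 0.21, edgeR adjusted p = 0.0459). After the GC correction, 5 genes of the list were called higher and 2 lower, against 6.88% of all genes. The median log2 fold change of the list was then 0.074, against -0.0057 over all genes.

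Of 29 other basic leucine zipper and AP-1 partner genes, 26 were tested by edgeR and 0 were called, against 2.21% of all genes. At an unadjusted p under 0.05 there were 5 in edgeR, near the 19.1% of all genes, and the median log2 fold change was 0.30. Other tools called 1 (DESeq2), 3 and 0 (limma on log2(TPM+1) with 5 and 6 libraries) and 16 (voom with sample quality weights). Of all genes, the same tools called 5.70% (DESeq2), 22.9% and 1.70% (limma) and 61.4% (voom), and a share of the list near these says nothing of the list. The smallest p-values were those of ATF5, a stress-responsive ATF protein (log2 fold change 0.54, edgeR adjusted p = 0.0814), and NFE2L1, a factor that induces proteasome genes (0.42, edgeR adjusted p = 0.226). After the GC correction the median was 0.086, and 2 were called higher, against 4.42% of all genes. Of 33 kinases and nuclear cofactors that act upstream of these factors, all were tested by edgeR and 0 were called. At an unadjusted p under 0.05 there were 9 in edgeR, against 19.1% of all genes, and the median was -0.015. DESeq2 called 2, limma 10 and 0, and voom 21 of them, against the same shares of all genes, and edgeR called 11 without RC48 replicate 2, where 28.3% of all genes were called. After the GC correction 3 were called higher, against 4.42% of all genes. MRTFA, the actin-regulated cofactor of SRF, had a log2 fold change of 0.69 (edgeR adjusted p = 0.107), and MAP2K3, a kinase that activates p38, had 0.55 (edgeR adjusted p = 0.145). The mRNA level of a kinase does not measure its activity, which was not measured in these libraries.

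Of 27 genes known as AP-1 targets, 24 were tested and 4 were called, all higher with RC48, against 2.21% of all genes tested, and the median log2 fold change was 0.18. The number called was 2 without Control replicate 1, Control replicate 3 or RC48 replicate 3, 3 without Control replicate 2, and 8 and 9 without RC48 replicates 1 and 2. It was also 2 with a minimum of 10 counts per library, since MMP7 and SPRR1A reached the filter on counts through their RC48 libraries alone. Of all genes, 0.537%, 0.591% and 0.515% were called without Control replicates 1, 2 and 3. The share was 6.82%, 28.3% and 0.706% without RC48 replicates 1, 2 and 3, and 1.82% with the minimum of 10 counts. CXCL8, a neutrophil-attracting chemokine that NF-κB also induces, had 22, 31 and 28 counts in Control and 1142, 2826 and 1658 in RC48 libraries, a log2 fold change of 6.09 (SE 0.39, edgeR adjusted p = 0.000432). MMP7, a matrix metalloproteinase, rested on few counts, 0, 3 and 1 in Control and 16, 18 and 17 in RC48 libraries (edgeR adjusted p = 0.0223).

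SPRR1A, a protein of the cornified envelope, had 3 to 7 counts in Control and 16 to 22 in RC48 libraries (log2 fold change 1.94, edgeR adjusted p = 0.0482). PLAU, the urokinase plasminogen activator, chosen after its values were seen, was the other called target (log2 fold change 1.34, edgeR adjusted p = 0.00181). Most genes of this list also respond to factors outside AP-1, so their change is not a measure of AP-1 activity. After the GC correction, 8 were called higher and 1 lower, against 6.88% of all genes.

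**Figure D5:**
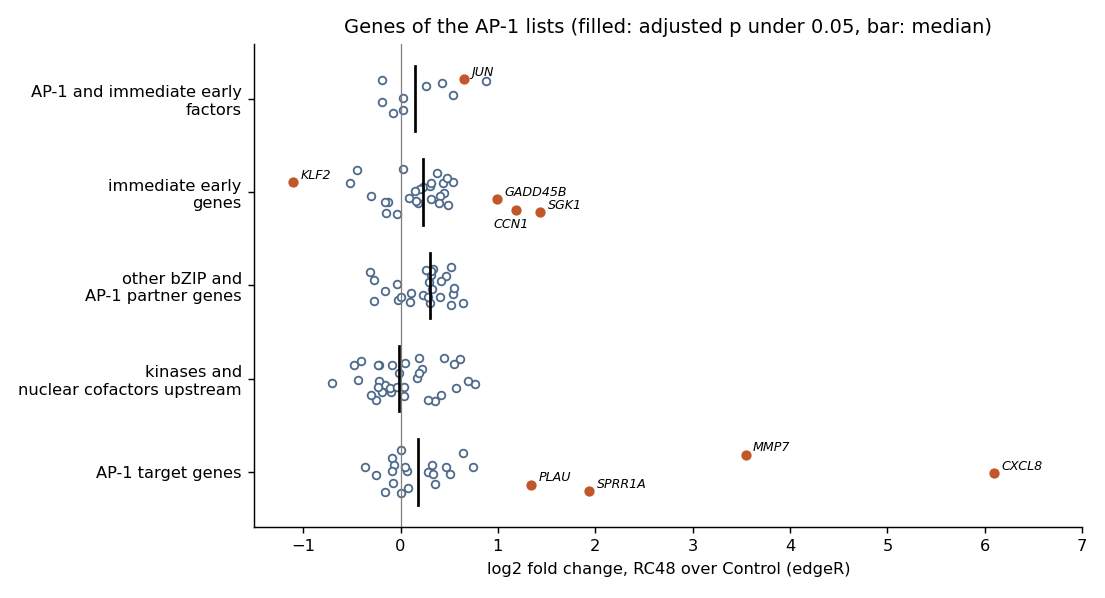
Log2 fold change of RC48 over Control from edgeR (horizontal axis) for the 10 factors and the tested genes of the 4 lists (circles, filled where the adjusted p was under 0.05), with the median of each list as a bar. JUN is the filled factor, and MMP7 and CXCL8 lie farthest to the right among the targets.

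Markers of cell types were read beside these results. All 15 urothelial and epithelial markers were listed, and 14 were tested. Their summed level was 17290 to 18220 TPM in Control and 20230 to 20880 TPM in RC48 replicates 1 and 3. Most of this sum was the keratins KRT7, KRT8, KRT18 and KRT19, so it says little of the other markers. KRT7 had 6859 to 7333 TPM in Control and 10790 and 9012 TPM in RC48 replicates 1 and 3. The median log2 fold change was 0.052, and 1 was called by edgeR, against 2.21% of all genes tested. At an unadjusted p under 0.05 there were 5 in edgeR, against 19.1% of all genes. Of these, KRT7 was higher with RC48, and FOXA1, UPK1B, EPCAM and KRT20 were lower. KRT20, a luminal keratin, fell by 1.55 on the log2 scale (edgeR adjusted p = 0.0489) from 33 to 35 counts to 8 to 18. With any Control library left out, edgeR called 0 of the 14, with 3 or 4 at an unadjusted p under 0.05. Of all genes, these fits called 0.515% to 0.591%, and a share of the list near this says nothing of the list. Of 12 leukocyte markers 9 were listed, with summed levels of 24.8 to 28.3 TPM in Control and 32.0 to 46.5 TPM in RC48 replicates 1 and 3. Most of this sum was CD68, with 20.4 to 23.2 TPM in Control and 37.0 and 25.2 TPM in RC48 replicates 1 and 3. PTPRC, the defining leukocyte gene, had 0 counts in Control and at most 1 in an RC48 library. Of 6 leukocyte markers tested, 1 was called by edgeR, against 2.21% of all genes tested. This was ITGAM, an integrin chain, with 0, 5 and 0 counts in Control and 69, 54 and 65 in RC48 libraries (edgeR adjusted p = 0.0074). It reached the filter on counts through its RC48 libraries alone. With a minimum of 10 counts per library 1 leukocyte marker was tested and 0 were called (edgeR, 0 at an unadjusted p under 0.05). Of all genes, this fit called 1.82%. Of 11 fibroblast and endothelial markers 10 were listed, at 219.9 to 250.3 TPM in Control and 164.4 to 221.2 TPM in RC48 replicates 1 and 3. Most of this sum was COL3A1 and LUM, which moved in opposite directions. COL3A1 had 86.4 to 107.6 TPM in Control and 108.6 and 143.9 TPM in RC48 replicates 1 and 3. LUM had 119.6 to 131.3 TPM in Control and 44.3 and 66.6 TPM in RC48 replicates 1 and 3. Neither was called by edgeR. The part of any of these cell types in the results was not tested.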

How the data were processed

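Total RNA of 3 Control and 3 RC48 libraries was sequenced by the authors, who used SOAPnuke to filter reads, Bowtie2 to map them and RSEM to count them. The submitters' processing notes name hg38, Bowtie2, RSEM and limma, and their versions are not given in the sources used here. The deposited values are RSEM's estimated counts, without normalization, and TPM, which the authors computed per gene length and library. The deposited TPM values of 5 libraries were read, and that of RC48 replicate 2 was derived, for 1 alternative, from its counts with the lengths implied by the others. Totals of 16453233 to 17988030 counts set the precision, and this covers counting error only.

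Estimated counts were rounded, filtered with filterByExpr and scaled by TMM. The test was edgeR's quasi-likelihood test (edgeR 4.0.16, R 4.3.3), RC48 against Control without covariates, with Benjamini-Hochberg adjustment over 13055 genes at 0.05. Ratios per library used a pseudocount of 0.5 CPM. The GC content of 16321 genes (99.6%) came from GENCODE release 29 transcripts, and the correction subtracted a loess trend (span 0.3) as an offset in edgeR. Permutation tests were exact and two-sided. The procedure was run on simulated data with the same spread for all genes and both groups and no trend on GC content. Such data cannot show how it deals with the GC trend or the wider spread of the RC48 libraries.

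The alternatives were DESeq2 1.42.0, limma 3.58.1 on log2(TPM+1) in 5 and in 6 libraries, limma on log2(TPM+0.1), voom with sample quality weights, no filter on counts, a minimum of 10 counts per library, scaling by library sizes or by RLE size factors, the replicate number as a block, the GC correction with and without it, and each library left out. The limma analysis of log2(TPM+1) is the one the study's methods name, and edgeR was used in its place because it fits the counts of all 6 libraries.

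The members and the lists were chosen with earlier results of these data known. Of the AP-1 target list, 1 gene is not reported here. Named are the 10 factors and, of each list, the called genes with the 3 largest rises and 3 largest falls, or the 2 smallest p-values where fewer than 2 were called. Markers and genes outside this rule were named after their values were seen. Promoter sequences are RefSeq's, on GRCh38.p14. Windows were searched whole, and bases inside annotated exons are not printed beyond 30 around a motif. Python 3.11.15, pandas 2.3.3, scipy 1.17.1 and matplotlib 3.10.9 were used.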

Additional observations from a re-analysis of the deposited data

How the results depend on the processing

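The number of factors called was 1, and it was 1 with RLE size factors, with no filter on counts, with a minimum of 10 counts per library, with the replicate block, and with the GC correction and the replicate block together. Of all genes, these fits called 2.21%, 2.15%, 1.69%, 1.82%, 2.54% and 4.40%, in this order. The number of factors called was 3 with DESeq2 (JUN, ATF3 and MAFF), against 5.70% of all genes. It was 3 with limma on log2(TPM+1) or log2(TPM+0.1) in 5 libraries (JUN, FOSL1 and MAFF), against 22.9% and 21.2%. It was 3 with the GC correction (MAFF up, FOS and FOSB down), against 6.88%, and 7 with voom and sample quality weights, against 61.4%. It was 0 with limma on log2(TPM+1) in 6 libraries and 0 with library sizes alone, both with 5 at an unadjusted p under 0.05, against 1.70% and 1.94% of all genes called. It was 0 to 4 with 1 library left out (3 to 7 at an unadjusted p under 0.05), against 0.515% to 28.3% of all genes called. With 1 left out and the GC correction it was 0 to 5, against 2.06% to 16.3%. A share of the factors near that of all genes says nothing of the factors. The number of genes called, 288 (89.6% of them up), was 744 with DESeq2 (72.0%), 2836 and 2626 with limma in 5 libraries on log2(TPM+1) and log2(TPM+0.1) (27.9% and 27.7%, with medians of all genes of -0.11 and -0.12), 8018 with voom (49.5%), 895 with the GC correction (64.4%) and 573 with the GC correction and the block (68.8%). It was 68 to 3726 with 1 library left out and 272 to 2147 with the GC correction as well.

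JUN, FOSL1, ATF3 and MAFF were higher and JUND, FOS and FOSB lower under every alternative. JUNB had a log2 fold change of 0.26 and reached -0.0085 with the GC correction, -0.048 with the block added, 0.15 to 0.32 with 1 library left out and -0.14 to 0.20 with the correction as well. FOSL2 had 0.023 and reached -0.076 and -0.077 with limma in 5 libraries, -0.037 in 6, -0.042 with library sizes alone, -0.19 with the GC correction and -0.19 with the block added, -0.036 to 0.13 with 1 library left out and -0.31 to -0.075 with the correction as well. EGR1 had 0.031 and reached -0.065 and -0.065 with limma in 5 libraries, -0.052 in 6, -0.026 with voom, -0.036 with library sizes alone, -0.16 with the GC correction and -0.16 with the block added, -0.053 to 0.065 with 1 library left out and -0.23 to -0.13 with the correction as well. Fits with 1 library left out hold fewer libraries, and the cause of the other shifts was not tested.

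Nothing in the labels says whether same-numbered libraries are paired. The correlations of the deviations of same-numbered libraries were 0.002, -0.132 and 0.005, and those of differently numbered libraries were -0.112 to 0.131. Correlations over so few libraries cannot decide whether the libraries were paired. With the replicate block 331 genes were called, and of the factors MAFF (adjusted p = 0.0344 from edgeR) and not JUN (0.0673). With 3 libraries in each group, differences as small as those of EGR1, FOSL2 and JUND were within the intervals of the fit, and this does not show that they were equal.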
